A study of Mus musculus with 16 samples.

Results

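The collagen chain genes of the mouse heart were taken as every gene of the count table whose symbol has the form of a collagen alpha chain, Col, a type number, the letter a and a chain number. This gave 44 genes of the 18346 in the table: 11 of fibrillar collagens, 8 of basement membrane collagens, 6 of type VI collagen and 19 of other types. Hearts came from wild-type C57BL/6J mice (WT) and from mice with a systemic knockout of Armh4 (KO), a whole-body model that does not single out a cell type of the heart. In each genotype 4 hearts were taken at 8 weeks (young) and 4 at 25 months (aged), each from a different mouse kept on a normal diet. The labels give the hearts of a group as independent animals. Age and genotype were the only stated differences, and the sex of the mice, the design of the knockout allele and the library batches are not given in the sources used here. Hearts are named by group and animal number, and values are listed in the order 29, 34, 39 and 42 for young WT, 1, 4, 5 and 12 for aged WT, 27, 31, 38 and 53 for young KO, and KO_Aged_114, KO_Aged_115, KO_Aged_122 and KO_Aged_125 for aged KO.

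Collagens are trimers of alpha chains, built in the endoplasmic reticulum from the products of different genes or from a single one, and then secreted. Fibrillar collagens I, III and V form the fibres that fibroblasts lay down between cardiac muscle cells, and are classical markers of scar and of interstitial fibrosis. Type IV collagen makes the sheet of the basement membrane that surrounds every cardiomyocyte and capillary, with collagens XV and XVIII at its outer face and within it. Type VI collagen forms beaded filaments that join the basement membrane to the fibres around it. The mRNA measured here reports current transcription and turnover of the message, while collagen protein lasts far longer in tissue. In whole hearts, fewer cells of a type and less RNA per cell cannot be told apart.

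The hearts were sequenced to between 11456503 and 13298660 gene counts, and Armh4, at 12.7 to 20.3 counts-per-million units (CPM) in the 8 WT hearts, was at 0.0825 to 1.68 CPM in the 8 KO hearts. The samples were heart by their markers: the summed level of 12 cardiomyocyte markers was 107000 to 144000 CPM over the 16 hearts. Of 14 fibroblast markers 1 rose and 1 fell with age in WT, with sums of 2630 to 3230 CPM in young and 2710 to 3410 CPM in aged WT hearts. Heart WT_Aged_1 stood apart from the other aged WT hearts in collagen genes and in other markers, as given below.

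Levels per transcript length, in FPKM (fragments scaled by transcript length and library depth), put the type IV genes first. Mean FPKM over the 16 hearts was 68.6 for Col4a1 and 51.8 for Col4a2, the chains of the common type IV trimer, followed by 41.9 for Col3a1, 28.5 for Col1a2, 27.2 for Col6a1, 24.7 for Col6a2, 19.9 for Col15a1, 14.3 for Col1a1 and 10 for Col4a5. These 9 genes reached 10 FPKM, 12 more lay between 1 and 10, and 23 were under 1. The order had ties. In young WT hearts Col1a2 (33.4 ± 5.80 FPKM, SD, n = 4), Col6a1 (33.2 ± 3.66) and Col6a2 (32.2 ± 3.41) lay within their spread of each other, whereas Col4a1 (94.9 ± 12.1) lay above Col4a2 (69.6 ± 6.97) by more than either SD. Col3a1 in young WT was at 53.9 ± 12.4 FPKM, and Col1a1, which gives more chains to the type I trimer than Col1a2 does, was at 19.1 ± 3.59 FPKM.

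At the other end, Col10a1, the chain of growth plate cartilage, had no count in any of the 16 hearts, where the limit that a count of 0 allows (3 counts) is 0.226 to 0.262 CPM per heart. Col6a4 had 1 count in all, and Col9a1 5. The cartilage chains Col2a1 (28 counts over 16 hearts), Col11a1 (23) and Col9a2 (51), the bone-linked Col24a1 (32), the epithelial anchoring chain Col17a1 (25), and Col6a5 (16), Col19a1 (22) and Col26a1 (55) were likewise too low to test. These 11 genes are not among the 33 collagen genes tested, which were 8 fibrillar, 8 basement membrane, 4 type VI and 13 other. A gene could pass the filter on low counts through a single group. Every count of a collagen gene was a whole number, within a tolerance of 1e-09.

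Some collagen genes lie side by side. In the RefSeq annotation of GRCm38.p6, 8 pairs of collagen genes are next to each other among protein-coding genes, among them Col4a1 with Col4a2 on chromosome 8, Col4a3 with Col4a4 and Col3a1 with Col5a2 on chromosome 1, Col6a1 with Col6a2 on chromosome 10, and Col4a5 with Col4a6 on chromosome X. The annotated starts of Col4a1 and Col4a2, which are transcribed in opposite directions, are 21 bases apart. Promoter windows were found by symbol and gene ID for 35 of the 44 genes. There was no entry for Col12a1, Col14a1, Col1a1, Col22a1, Col26a1, Col2a1, Col4a3, Col5a2 and Col9a3.

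The 250 bases before the annotated start are shown, 5′ to 3′ on the strand of the gene, for 3 genes whose values recur below. They are Col15a1, with the lowest log2 change of the 33 collagen genes tested in WT ageing, and Col5a1, a fibrillar gene with closely agreeing hearts. The third is Col6a2, the collagen gene called in the test of whether ageing differed between genotypes, a call that depended on single hearts. Col15a1 lies at chr4:47207762-47208011 on the + strand, Col5a1 at chr2:27886175-27886424 on the + strand, and Col6a2, for the outer of its 2 annotated starts, at chr10:76623631-76623880 on the - strand (GRCm38.p6, RefSeq). No annotated untranslated region of GENCODE M21 overlaps these windows. Capitals mark matches, on either strand, to the TATA box TATAAA, the CCAAT box, the GC box GGGCGG and the SMAD-binding letters CAGAC.
Col15a1: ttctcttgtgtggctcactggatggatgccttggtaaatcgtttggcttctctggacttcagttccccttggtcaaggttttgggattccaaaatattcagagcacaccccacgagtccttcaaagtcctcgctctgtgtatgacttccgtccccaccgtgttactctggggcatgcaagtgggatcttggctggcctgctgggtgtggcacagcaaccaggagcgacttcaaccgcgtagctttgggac
Col5a1: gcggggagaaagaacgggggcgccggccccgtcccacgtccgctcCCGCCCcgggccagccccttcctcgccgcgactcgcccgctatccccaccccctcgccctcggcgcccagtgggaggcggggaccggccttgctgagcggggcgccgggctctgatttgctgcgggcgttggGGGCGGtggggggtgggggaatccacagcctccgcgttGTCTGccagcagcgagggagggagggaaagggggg
Col6a2: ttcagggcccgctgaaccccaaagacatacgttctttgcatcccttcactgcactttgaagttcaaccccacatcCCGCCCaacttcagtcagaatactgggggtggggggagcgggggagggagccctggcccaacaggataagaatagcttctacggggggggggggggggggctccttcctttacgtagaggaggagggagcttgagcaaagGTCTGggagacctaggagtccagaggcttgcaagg
The Col15a1 window held none of the 4 motifs, the Col5a1 window held the GC box on both strands and CAGAC in reverse, and the Col6a2 window held the GC box and CAGAC, both in reverse. Of the 15 collagen genes that fell with age in WT 13 had a window, as did 13 of the 18 tested and not called. Taking the outermost window of each gene, a GC box was found in 7 of 13 that fell and in 10 of 13 not called. Over 32536 distinct mouse windows of this length, not limited to the outermost of a gene, the share was 33.0%. CAGAC was found in 6 of 13 and in 6 of 13 (42.2% of all windows), CCAAT in 6 of 13 and in 3 of 13 (33.8%), and TATAAA in 0 of 13 and in 3 of 13, namely Col3a1, Col13a1 and Col11a2 (12.3%). No motif contains another. These matches describe the letters in the windows and are not binding sites.

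**Figure D1:**
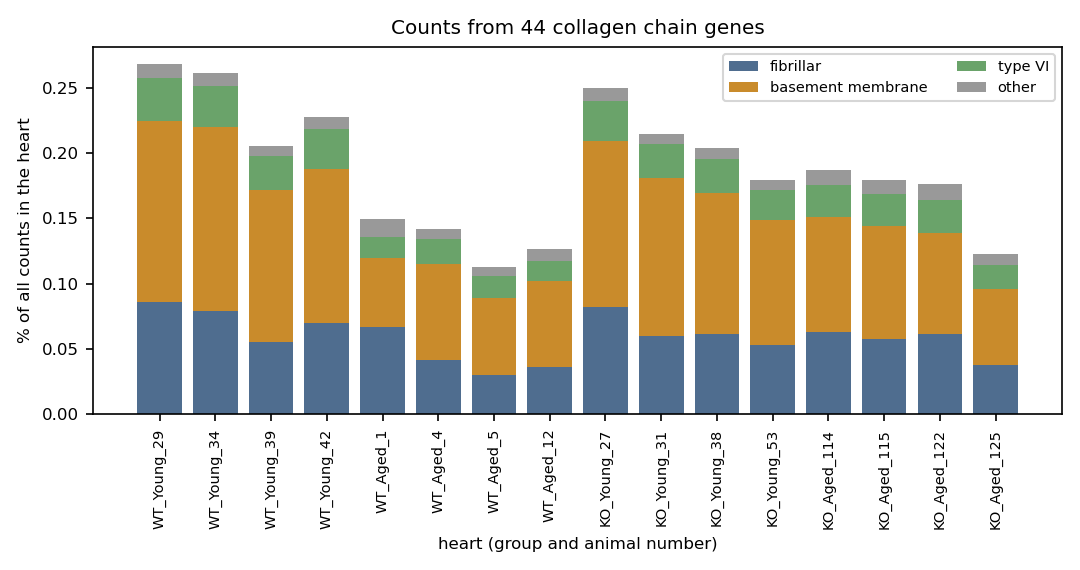
Percent of all gene counts in each heart that came from the 44 collagen genes, stacked by class, for 16 hearts. All 4 aged WT bars (0.112% to 0.149%) end below all 4 young WT bars (0.205% to 0.268%), and the fibrillar segment of WT_Aged_1 is 44.9% of its bar.

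In WT hearts collagen genes took a smaller share of all counts at 25 months than at 8 weeks. Together they held 0.268%, 0.261%, 0.205% and 0.227% of counts in young WT hearts and 0.149%, 0.142%, 0.112% and 0.127% in aged WT hearts. The groups did not overlap. In KO hearts the shares were 0.25%, 0.214%, 0.204% and 0.179% when young and 0.187%, 0.180%, 0.176% and 0.123% when aged, and these groups overlapped through KO_Aged_114 and KO_Aged_115. Basement membrane genes held 53.7 ± 2.48% of collagen counts in young WT (SD, n = 4), 53.4 ± 2.35% in young KO and 46.8 ± 1.77% in aged KO hearts. The other aged WT hearts were alike in their make-up and WT_Aged_1 was not: fibrillar genes made 44.9% of its collagen counts (95% Clopper-Pearson interval 44.2% to 45.7%, counting error only) and 26.4% to 29.1% in the other aged WT hearts, and basement membrane genes 35.4% (34.7% to 36.1%) against 51.8% to 53%.

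The comparison of aged with young WT hearts asks how collagen transcription stands in the old heart with Armh4 intact. Of the 33 collagen genes tested, 15 fell and 0 rose at an adjusted p under 0.05, by the quasi-likelihood F test of edgeR (Benjamini-Hochberg adjustment over all 13373 genes tested); over all genes 9.93% fell and 11.8% rose. The median log2 change over the collagen genes was -0.56, beside -0.01 over all genes, and 28 of 33 were below 0. Those that fell were 4 of 8 fibrillar, 6 of 8 basement membrane, 3 of 4 type VI and 2 of 13 other genes. In 13 of the 15 every aged WT heart was lower than every young WT heart, the exceptions being Col1a2 and Col5a3, and 9.68% of all genes were lower in this way. None of the 33 was higher without overlap (12% of all genes). Leaving out each heart in turn left 11 to 16 genes called, and 10 of the 15 were called each time: Col1a1, Col1a2, Col5a1, Col4a1, Col4a2, Col4a3, Col15a1, Col6a1, Col6a2 and Col6a3.

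**Figure D2:**
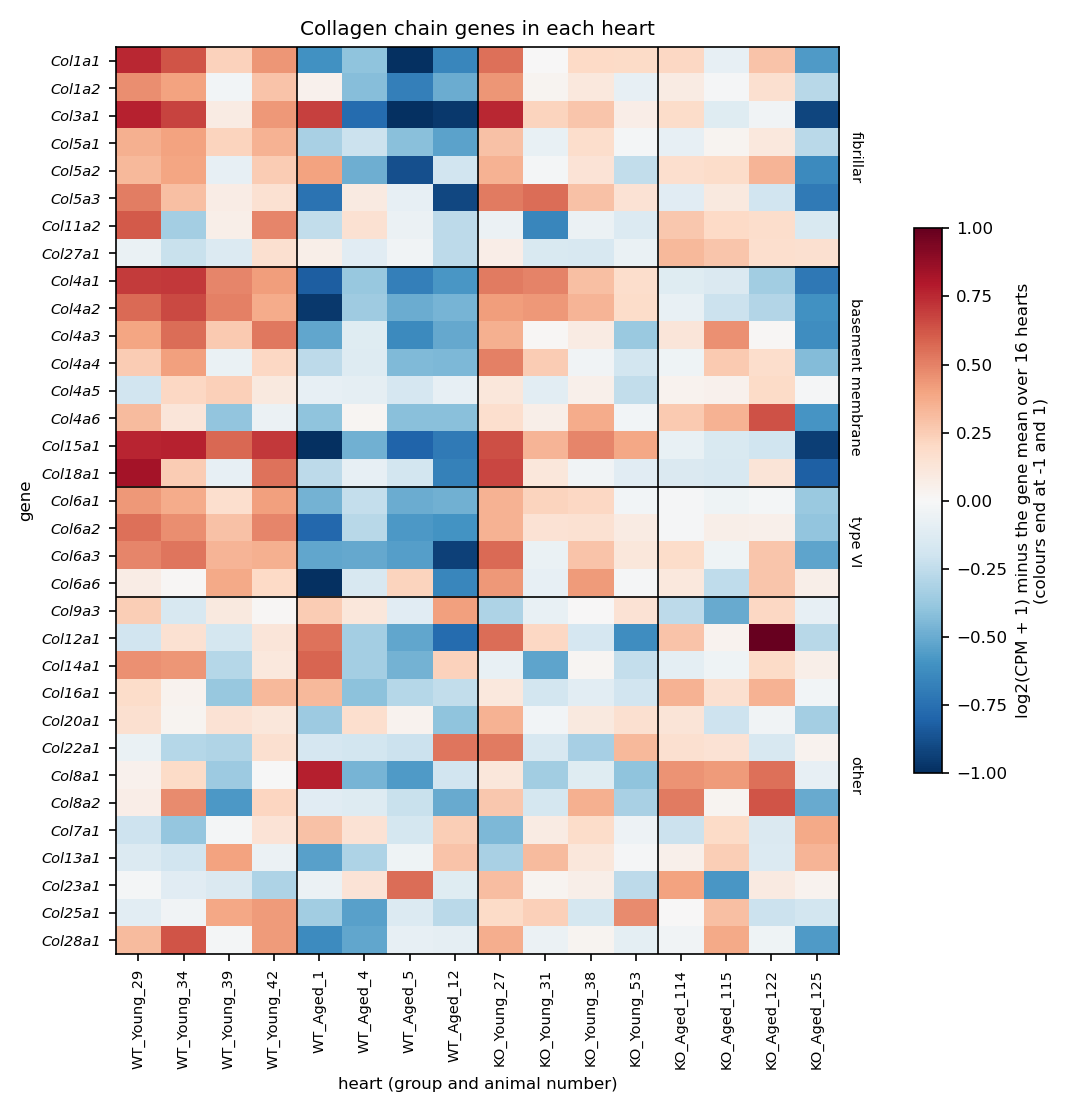
Level of each of the 33 tested collagen genes (rows, by class) in each of the 16 hearts (columns), as log2(CPM + 1) minus the mean of the gene. The aged WT columns are blue in most fibrillar, basement membrane and type VI rows, with WT_Aged_1 red at Col3a1 (327 CPM) and Col8a1 (62.8 CPM), and KO_Aged_125 is the bluest of the aged KO columns in most rows of those classes.

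Among fibrillar genes both chains of type I collagen fell with age in WT. Col1a1 (gene ID 12842) was at 130, 118, 89.5 and 104 CPM in young and at 49.7, 57.5, 32.8 and 48.2 CPM in aged WT hearts. The highest aged heart was well below the lowest young one, and the log2 change was -1.23 ± 0.19 (SE, adjusted p = 0.000292). Col1a2 (12843), its partner chain, was at 191, 182, 135 and 168 CPM in young and at 142, 102, 85.7 and 97.5 CPM in aged hearts. Here WT_Aged_1 was above WT_Young_39, so that the groups overlapped, and the change was smaller, at -0.66 ± 0.15 (adjusted p = 0.00378). Col5a1 (12831), which helps to start fibrils, was at 74.9, 77.4, 68.3 and 74.3 CPM in young and 46.3, 50, 43.2 and 39.8 CPM in aged hearts. The hearts of each group lay close together and apart from the other group, with a change of -0.72 ± 0.10 (adjusted p = 2.85e-05). Col5a3 (53867), a minor type V chain, was at 42.2, 36.4, 30.8 and 32.6 CPM in young and 17.1, 31.2, 27.6 and 15.1 CPM in aged hearts. WT_Aged_4 reached above WT_Young_39, and the change of -0.64 ± 0.21 (adjusted p = 0.0402) was lost without any of the hearts WT_Aged_1, WT_Aged_12, WT_Young_29, WT_Young_34, WT_Young_39 or WT_Young_42 (adjusted p up to 0.135).

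Col3a1 (12825), the type III chain that is mixed into type I fibres, did not pass edgeR's test in WT ageing. It was at 348, 326, 216 and 276 CPM in young WT hearts and at 327, 119, 79.3 and 104 CPM in aged ones. The other aged hearts lay below every young heart, while WT_Aged_1 lay among the young. The log2 change was -0.89 ± 0.39 (adjusted p = 0.127), and without WT_Aged_1 it was -1.52 (adjusted p = 0.00175). Its chromosomal neighbour Col5a2, the second type V chain, was at 49.5, 51.8, 37.0 and 46.9 CPM in young and 52.2, 27.7, 20.9 and 34.3 CPM in aged WT hearts (-0.46 ± 0.26, adjusted p = 0.228). Here WT_Aged_1 lay above every young heart and the other aged hearts below every one. Col5a2 was also called without WT_Aged_1, when 13 collagen genes fell with a median of -0.72. The network chain Col8a1 and the fibril-associated Col14a1 were also highest among aged WT in that heart, at 62.8 CPM against 24.1 to 31.6 CPM and at 31.2 CPM against 14.5 to 24.2 CPM. WT_Aged_1 also had the highest sum among aged WT of 12 macrophage markers (913 CPM, others 650 to 695 CPM). The same held for 9 atrial markers (561 CPM, others 231 to 260 CPM) and 8 erythroid markers (2250 CPM, others 1050 to 1880 CPM). WT_Aged_1 had the lowest sum of 13 pericyte and smooth muscle markers (1420 CPM, others 1530 to 1740 CPM). The widest spread among the atrial markers tested was that of Nppa, at 164 ± 164 CPM in aged WT hearts (SD, n = 4). Myl4 (2.27 ± 0.614 CPM) and Myl7 (0.158 ± 0.113 CPM) were low there. The fibroblast marker sum of WT_Aged_1, 3380 CPM, was within the range of the other aged WT hearts (2710 to 3410 CPM). Its sum of 20 TGF-beta pathway genes, 1410 CPM, was the highest of aged WT (others 1190 to 1320 CPM). In the lists of TGF-beta, synthesis and breakdown genes, some SDs were above the means in aged WT hearts. They were those of Postn (148 ± 169 CPM), Lox (14.3 ± 17 CPM), Mmp3 (19.8 ± 21.1 CPM) and Timp1 (7.86 ± 10.2 CPM). These SDs do not say which heart was high. The part of these differences in the collagen values was not tested. The remaining fibrillar genes Col11a2 (-0.42 ± 0.22) and Col27a1 (-0.03 ± 0.12) were not called.

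**Figure D3:**
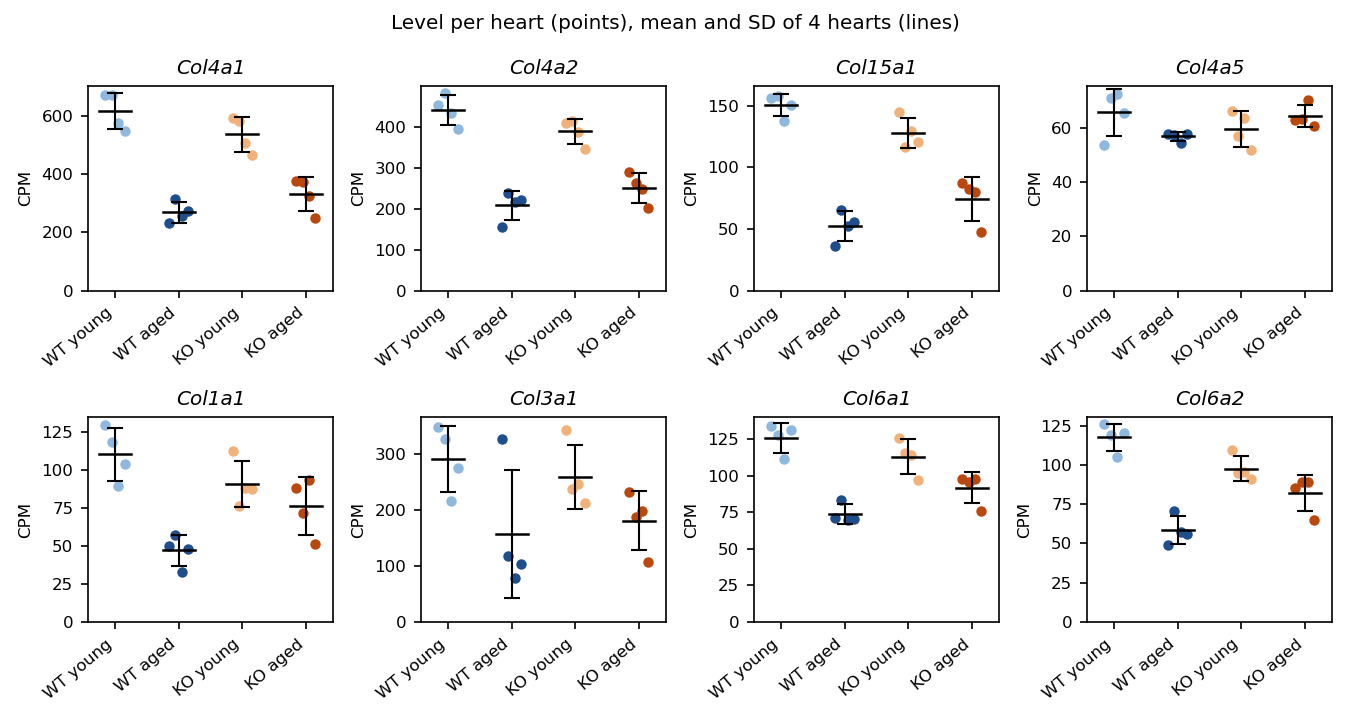
CPM of 8 collagen genes in each heart (points) with the mean and SD of the 4 hearts of a group (lines), each axis from 0. In Col4a1, Col4a2 and Col15a1 both aged groups lie below both young groups, Col4a5 differs little, WT aged holds 1 high heart (327 CPM) for Col3a1, and for Col6a1 and Col6a2 the aged KO hearts lie between young and aged WT except for KO_Aged_125.

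The basement membrane class held the tested gene with the lowest change in WT ageing, and its median of -0.89 equalled that of type VI genes (-0.65 for fibrillar genes). Col4a1 (12826) was at 670, 671, 577 and 549 CPM in young and 231, 316, 255 and 274 CPM in aged WT hearts. Col4a2 (12827) was at 453, 484, 434 and 395 CPM in young and 156, 239, 216 and 221 CPM in aged hearts. For both chains the aged hearts were far below the young, by a log2 change of -1.2 ± 0.13 for Col4a1 (adjusted p = 2.19e-06) and -1.09 ± 0.12 for Col4a2 (adjusted p = 3.85e-06). Col15a1 (12819), a collagen that carries sugar chains and links the basement membrane to the fibres outside it, was at 156, 158, 138 and 150 CPM in young and 36.1, 65.7, 52.4 and 55.7 CPM in aged hearts. This was the lowest log2 change of the 33 collagen genes tested in WT ageing, at -1.52 ± 0.17 (adjusted p = 8.63e-06), with the aged level 0.349 times the young. The cartilage chain Col11a1, too low to be among the 33, was listed at 0.161 to 0.402 CPM in young and at 0 to 0.0811 CPM in aged WT hearts, and was called as lower when no filter on low counts was used. Col18a1 (12822), the related chain from which endostatin is cut, was at 23.3, 15.4, 12.0 and 19.0 CPM in young and 10.5, 12.0, 11.1 and 7.60 CPM in aged hearts. WT_Young_39 lay at the edge of the aged hearts, and the change of -0.76 ± 0.24 (adjusted p = 0.0293) was lost without any of WT_Aged_1, WT_Aged_12, WT_Young_29 or WT_Young_42 (adjusted p up to 0.0999).

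The minor type IV chains, which form a network of their own in kidney and some other tissues and are mutated in Alport syndrome, did not all behave alike. Col4a3 (12828) was at 8.21, 9.33, 7.41 and 9.15 CPM in young and 3.89, 5.47, 3.51 and 3.92 CPM in aged WT hearts, with a change of -1.02 ± 0.22 (adjusted p = 0.00211). Its neighbour Col4a4 (12829) was at 18.0, 20.3, 14.3 and 17.5 CPM in young and 12.3, 13.6, 10.8 and 10.7 CPM in aged hearts, with a change of -0.56 ± 0.17 (adjusted p = 0.0195). In both genes the groups did not overlap, and Col4a4 was not called without WT_Aged_12 or without WT_Young_34. Col4a5, on chromosome X, was at 53.8, 71.1, 72.8 and 65.8 CPM in young and 58.1, 57.7, 54.6 and 58.0 CPM in aged hearts. Its groups overlapped through WT_Young_29, and its change of -0.21 ± 0.09 (adjusted p = 0.121) did not pass. Without WT_Young_29 Col4a5 was called as lower. Col4a6, at 1.68 to 3.46 CPM in the 8 WT hearts, did not pass (-0.46 ± 0.30). In the edgeR fit of all hearts, 5 neighbouring pairs had both genes tested. Both genes fell in 3 (Col4a1 with Col4a2, Col4a3 with Col4a4, Col6a1 with Col6a2) and neither was called in 2 (Col3a1 with Col5a2, Col4a5 with Col4a6).

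The 3 main chains of type VI collagen fell in WT ageing. Col6a1 (12833) was at 134, 128, 111 and 131 CPM in young and 70.9, 83.7, 69.8 and 70.5 CPM in aged WT hearts. Col6a2 (12834) was at 126, 119, 105 and 120 CPM in young and 49.3, 70.6, 57.3 and 56.3 CPM in aged hearts. Col6a3 (12835), the long chain that is cut to release endotrophin, was at 57.8, 59.9, 52.2 and 52.9 CPM in young and 28.2, 28.4, 27.7 and 21.0 CPM in aged hearts. For each chain all aged hearts were below all young hearts, with log2 changes of -0.77 ± 0.10 for Col6a1 (adjusted p = 1.48e-05), -1.01 ± 0.11 for Col6a2 (adjusted p = 2.95e-06) and -1.08 ± 0.16 for Col6a3 (adjusted p = 9.32e-05). Col6a6, at 3.41 to 10.7 CPM in WT hearts, was not called (-0.56 ± 0.23, adjusted p = 0.0911), but was called as lower without WT_Aged_5.

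Of the 13 other collagen genes tested, 2 fell in WT ageing, both at low levels. Col28a1 (213945), a chain of peripheral nerve, was at 2.33, 3.14, 1.64 and 2.60 CPM in young and 0.730, 0.872, 1.53 and 1.52 CPM in aged hearts. The groups were apart by a small margin between WT_Young_39 and WT_Aged_5, and the change of -1.06 ± 0.32 (adjusted p = 0.0217) was lost without any of WT_Aged_1, WT_Aged_4, WT_Young_34 or WT_Young_42. Of 9 Schwann cell markers tested 1 fell and 0 rose (median -0.53), with sums of 76.7 to 112 CPM in young and 74.1 to 100 CPM in aged WT hearts. Their part in the Col28a1 values was not tested. The transmembrane chain Col25a1 was at 0.563 to 1.26 CPM in young and 0.158 to 0.535 CPM in aged hearts, with a change of -1.33 ± 0.44 (adjusted p = 0.0368), also lost without some hearts. The median over the 13 genes was -0.20, and the uncalled ones ran from -0.75 for Col8a2 to 0.37 for Col23a1. They included the fibril-associated chains Col14a1 (-0.16 ± 0.22), Col16a1 (-0.20 ± 0.17) and Col12a1 (-0.26 ± 0.48), and Col8a1 (0.02 ± 0.26), a short-chain collagen of vessel walls and of the subendothelium.

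Genes that make, cut and sense collagen were set beside the chains in the same WT hearts. Of 31 tested genes of collagen synthesis and processing, 8 fell and 0 rose (median -0.12). They were led by Serpinh1, a collagen chaperone that fell from a mean of 260 to 134 CPM (-0.96 ± 0.10, adjusted p = 2.85e-06), and held Plod1, a lysyl hydroxylase (-0.52 ± 0.07, adjusted p = 4.12e-05), Sparc, a collagen-binding protein (-0.80 ± 0.14, adjusted p = 0.000593), and Fkbp10, a chaperone of type I collagen (-0.44 ± 0.12, adjusted p = 0.0131). Of 17 laminins, nidogens and other basement membrane genes 9 fell and 0 rose (median -0.42), among them Nid1 (-0.64 ± 0.09), the perlecan gene Hspg2 (-0.58 ± 0.10), Lamc1 (-0.48 ± 0.09) and Lama4 (-0.40 ± 0.08). Of 17 genes of collagen breakdown 2 rose and 5 fell (median 0.15). The lysosomal protease Ctsl rose by 0.71 ± 0.09, and Mmp15 (-0.51 ± 0.12), the inhibitor Timp3 (-0.34 ± 0.10) and the collagen uptake receptor Mrc2 (-0.36 ± 0.10) fell. Of 13 collagen receptors 2 rose and 4 fell, with Lair1, an inhibitory receptor of leukocytes, up by 2.23 ± 0.27 and Itga10 at -1.33 ± 0.29. Of 20 TGF-beta pathway genes 1 rose (Tgfbr2, 0.39 ± 0.08) and 6 fell, including Tgfb3 (-0.58 ± 0.13), Ski (-0.39 ± 0.08) and the latent TGF-beta binding protein Ltbp1 (-0.46 ± 0.12).

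Markers of cell types in the heart moved with these values to different degrees. Fibroblast markers had a median change of 0.08 in WT ageing. Of 14 endothelial markers 1 rose and 6 fell (median -0.21), with sums of 2520 to 3060 CPM in young and 2310 to 2530 CPM in aged WT hearts. These sums lean on single genes. Mean Aqp1 was 708 CPM in young and 228 CPM in aged WT hearts, and mean Fabp4 was 434 and 768 CPM. Of 13 pericyte and smooth muscle markers 0 rose and 3 fell (median -0.38), with sums of 1900 to 2250 CPM in young and 1420 to 1740 CPM in aged WT hearts. Macrophage markers rose in 11 of 12 (median 1.36), with sums of 234 to 326 CPM in young and 650 to 913 CPM in aged hearts. Erythroid markers rose in 7 of 7 tested (median 1.5), with sums of 548 to 739 CPM in young and 1050 to 2250 CPM in aged WT hearts. Of 12 cardiomyocyte markers 0 rose and 3 fell (median -0.13), with sums of 123000 to 142000 CPM in young and 107000 to 126000 CPM in aged WT hearts. The part of these markers in the collagen changes was not tested. Among the other lists Msln and Lrrn4, mesothelial markers, were at 0 in all aged WT hearts, as were the fat markers Ucp1 in both young groups and Lep in both aged groups, and the atrial marker Bmp10 in young WT and aged KO hearts. Cspg4 is both a pericyte marker and in the list of collagen receptors.

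In KO hearts the same comparison of age called fewer collagen genes. Of 33 tested, 3 fell and 0 rose, while 2.60% of all genes fell and 5.03% rose. The 3 were basement membrane genes: Col4a1, Col4a2 and Col15a1. The median log2 change was -0.15 over the collagen genes, with 22 of 33 below 0, and -0.01 over all genes. All 3 calls were kept whichever of the 8 hearts was left out, and Col6a1 was added without KO_Young_53. In 5 of the 33 genes every aged KO heart was lower than every young KO heart (6.98% of all genes), namely the 3 called with Col5a3 and Col6a2, and in 1, Col27a1 (0.34 ± 0.12, adjusted p = 0.0893), every aged KO heart was higher (8.7% of all genes).

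Col4a1 was at 592, 581, 507 and 465 CPM in young and 377, 371, 323 and 251 CPM in aged KO hearts. Col4a2 was at 409, 414, 387 and 347 CPM in young and 290, 263, 249 and 201 CPM in aged KO hearts. Col15a1 was at 144, 116, 129 and 121 CPM in young and 86.9, 82.5, 79.7 and 47.5 CPM in aged KO hearts. In each gene all aged KO hearts lay below all young KO hearts, with KO_Aged_125 lowest. The log2 changes were -0.70 ± 0.12 for Col4a1 (adjusted p = 0.00155), -0.64 ± 0.12 for Col4a2 (adjusted p = 0.00257) and -0.78 ± 0.17 for Col15a1 (adjusted p = 0.00778). Other basement membrane chains were not called: Col4a3 was at 7.99, 6.09, 6.44 and 4.42 CPM in young and 6.65, 8.61, 6.09 and 3.56 CPM in aged KO hearts, which overlapped throughout, with a change that rounds to 0.00 ± 0.21. Col4a4 (-0.15 ± 0.16) and Col18a1 (-0.43 ± 0.24) were not called either.

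Neither type I chain was called in KO ageing. Col1a1 was at 112, 76.4, 87.8 and 87.2 CPM in young and 88.3, 72.0, 93.2 and 51.2 CPM in aged KO hearts. These overlapped, and the change was -0.25 ± 0.19 (adjusted p = 0.477). Col1a2 was at 188, 141, 148 and 131 CPM in young and 146, 137, 155 and 113.7 CPM in aged KO hearts, with a change of -0.14 ± 0.15 (adjusted p = 0.643). Col3a1, at 343, 237, 247 and 213 CPM in young and 232, 187, 199 and 107 CPM in aged KO hearts, had a change of -0.52 ± 0.39 (adjusted p = 0.492). Col5a1 was at 71.7, 55.2, 65.9 and 57.4 CPM in young and 55.0, 59.5, 62.9 and 48.2 CPM in aged KO hearts (-0.15 ± 0.10). Col5a3 had every aged KO heart (26.9, 31.4, 25.5 and 17.5 CPM) below every young one (42.4, 43.5, 36.1 and 32.4 CPM) and was not called, with a change of -0.61 ± 0.21 (adjusted p = 0.0956). It was called with DESeq2 (adjusted p = 0.036) and when only these 8 hearts were fitted (adjusted p = 0.0429), where Col8a1 was also called as higher in aged KO.

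Type VI genes showed small uncalled differences in KO ageing. Col6a1 was at 126, 115.4, 114.1 and 96.9 CPM in young and 97.9, 95.9, 97.5 and 76.0 CPM in aged KO hearts, and Col6a2 at 109, 94.7, 95.5 and 91.0 CPM in young and 85.2, 89.1, 88.9 and 65.1 CPM in aged ones. For Col6a1 the groups overlapped slightly between KO_Young_53 and KO_Aged_114, and for Col6a2 all aged hearts were lower. The changes were -0.30 ± 0.10 for Col6a1 (adjusted p = 0.0701) and -0.25 ± 0.11 for Col6a2 (adjusted p = 0.184), and Col6a3, at 61.0, 39, 50.3 and 44.5 CPM in young and 46.7, 39.8, 50 and 28.1 CPM in aged KO hearts, had -0.24 ± 0.15 (adjusted p = 0.394). Col28a1 was at 2.44, 1.56, 1.73 and 1.5 CPM in young and 1.61, 2.48, 1.60 and 0.809 CPM in aged KO hearts (-0.16 ± 0.31). Of the wider lists in KO ageing, Serpinh1 fell by 0.54 on the log2 scale, Fkbp10 rose by 0.53 ± 0.12 and Pcolce2, an enhancer of procollagen cleavage, by 0.43 ± 0.11, and among the laminin and basement membrane genes only Pxdn, which crosslinks type IV collagen, fell (-0.42 ± 0.12). Timp2 and Timp3 rose by 0.34 each. Of the pericyte and smooth muscle markers 0 were called in KO ageing, with sums of 1690 to 1860 CPM in young and 1590 to 1690 CPM in aged KO hearts. Of the endothelial markers 1 rose and 4 fell, with sums of 2460 to 3040 CPM in young and 2060 to 2440 CPM in aged KO hearts. Within these sums mean Aqp1 was 606 CPM in young and 263 CPM in aged KO hearts, and mean Fabp4 was 483 and 711 CPM. Macrophage markers rose in 10 of 12. Of the erythroid markers 0 of 7 were called in KO ageing, with sums of 638 to 1100 CPM in young and 921 to 1870 CPM in aged KO hearts, and of the cardiomyocyte markers 1 of 12 fell. Their part in the collagen values was not tested.

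**Figure D4:**
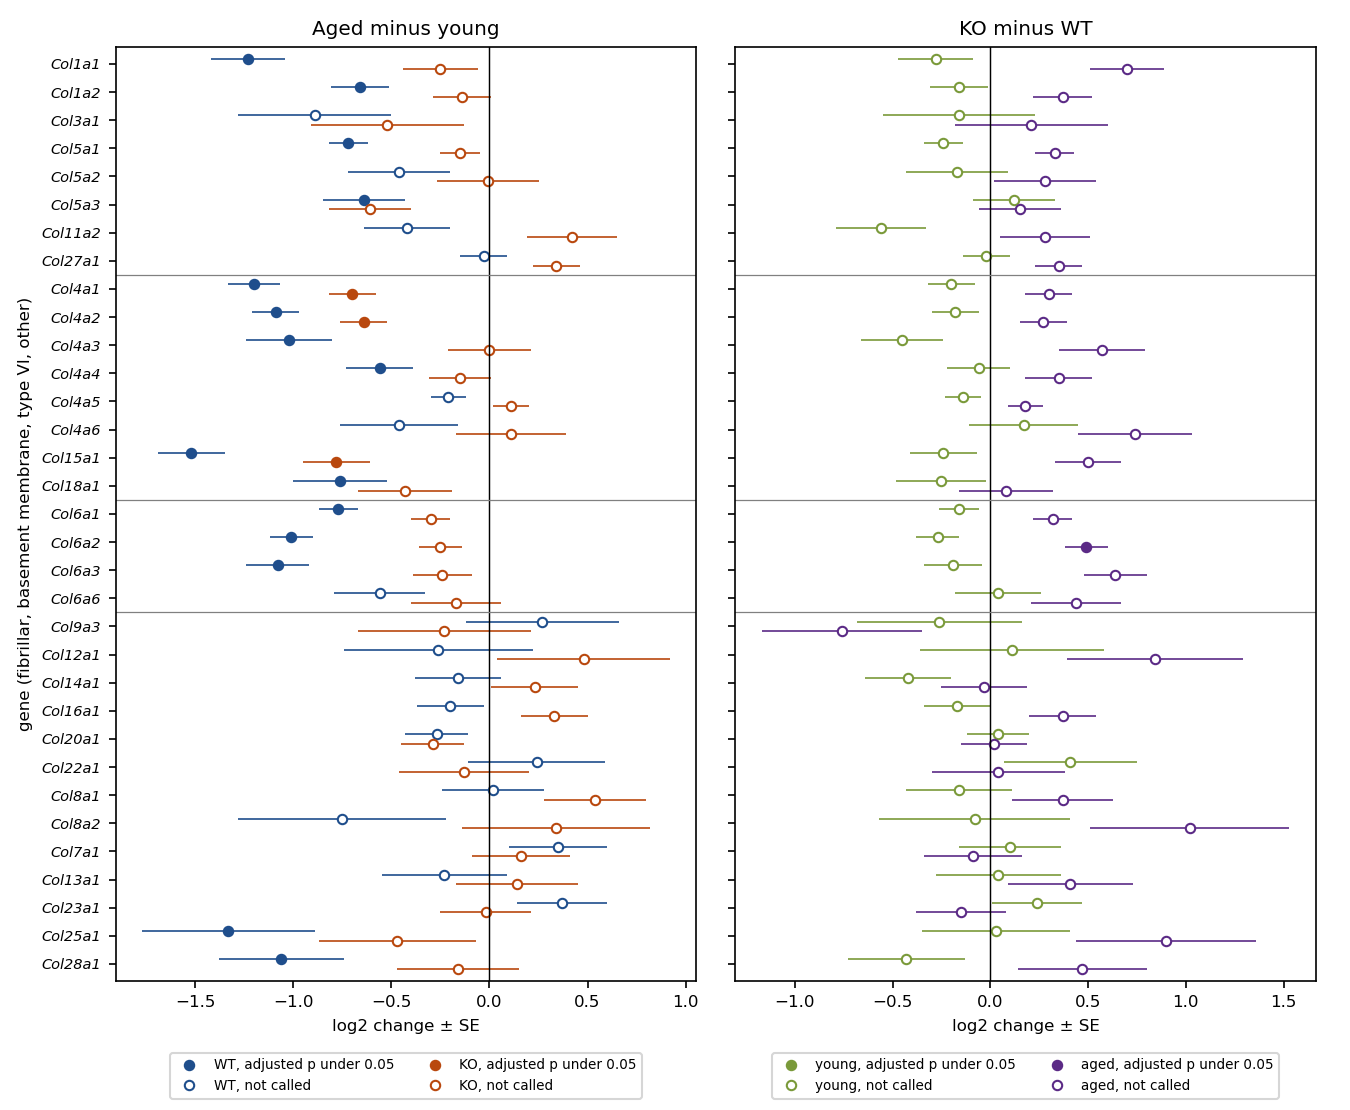
Log2 change with SE for the 33 tested collagen genes: aged minus young in WT and KO (left), KO minus WT at 8 weeks and 25 months (right), with filled points for an adjusted p under 0.05. On the left 15 WT points and 3 KO points are filled, all below 0, and on the right Col6a2 (0.49) in aged hearts is the only filled point while 29 of 33 aged points lie above 0.

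Whether collagen ageing differed between the genotypes was tested as an interaction, the change in KO minus the change in WT. A single collagen gene passed, Col6a2 (log2 difference 0.76 ± 0.16, adjusted p = 0.0334), with the ageing change of KO hearts less negative than that of WT hearts. Among all genes 0.127% had a positive and 0.336% a negative interaction. Col5a1 (0.57 ± 0.14, adjusted p = 0.0698), Col6a3 (0.84 ± 0.22, adjusted p = 0.107) and Col1a1 (0.97 ± 0.27, adjusted p = 0.133) did not pass. The median over the 33 genes was 0.48, beside 0.00 over all genes, with 28 above 0. Of the 33, 14 had an unadjusted p under 0.05, all with positive values, a threshold that 5.82% of all genes reached with a positive and 6.42% with a negative interaction. The call of Col6a2 was lost without any 1 of 9 hearts (WT_Young_29, WT_Young_34, WT_Young_42, KO_Young_31, KO_Young_38, KO_Young_53, KO_Aged_114, KO_Aged_115 and KO_Aged_122; adjusted p up to 0.0942), and with limma on FPKM (adjusted p = 0.0611 at a pseudocount of 1). Without KO_Aged_125, 6 collagen genes passed: Col6a2 with Col1a1, Col5a1, Col4a3, Col15a1 and Col6a3. The 3 calls in KO ageing against 15 in WT do not by themselves show a difference for the genes other than Col6a2.

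At 25 months the direct comparison of KO with WT hearts called the same gene. Of 33 collagen genes 1 rose and 0 fell, with 0.165% of all genes higher and 0.710% lower in aged KO. Col6a2 was at 85.2, 89.1, 88.9 and 65.1 CPM in aged KO hearts and 49.3, 70.6, 57.3 and 56.3 CPM in aged WT hearts. The groups overlapped, since KO_Aged_125 was below WT_Aged_4, and the log2 change was 0.49 ± 0.11 (adjusted p = 0.0368). This comparison and WT ageing share the aged WT hearts. The call was lost without any of KO_Aged_114, KO_Aged_115, KO_Aged_122, WT_Aged_1, WT_Aged_5 or WT_Aged_12 (adjusted p up to 0.165), in a fit of only these 8 hearts (adjusted p = 0.229) and with limma on FPKM (adjusted p = 0.0775 at a pseudocount of 1).

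Most other collagen genes had uncalled positive differences in aged KO hearts: 29 of 33 were above 0 with a median of 0.35 (0.00 over all genes), and 14 had an unadjusted p under 0.05, all with positive values. Of all genes 5.16% reached that threshold as higher and 5.71% as lower. Col6a3 was at 46.7, 39.8, 50 and 28.1 CPM in aged KO and 28.2, 28.4, 27.7 and 21.0 CPM in aged WT hearts (0.64 ± 0.16, adjusted p = 0.0659). Col1a1 was at 88.3, 72.0, 93.2 and 51.2 CPM in aged KO and 49.7, 57.5, 32.8 and 48.2 CPM in aged WT hearts (0.70 ± 0.19, adjusted p = 0.119). In both genes KO_Aged_125 alone of the aged KO hearts lay within the range of aged WT. Without it 4 collagen genes were called, Col6a2, Col1a1 (0.85), Col15a1 (0.66) and Col6a3 (0.79). Col27a1, at 10.6, 10.2, 9.37 and 9.30 CPM in aged KO and 8.60, 7.53, 8.02 and 6.72 CPM in aged WT, and Col4a5, at 63.2, 63.4, 70.4 and 60.9 CPM against 58.1, 57.7, 54.6 and 58.0 CPM, were the 2 of the 33 tested collagen genes with every aged KO heart above every aged WT heart, which held for 2.09% of all genes. None was lower without overlap (2.95% of all genes). Neither was called (0.35 ± 0.12, adjusted p = 0.211, and 0.18 ± 0.09, adjusted p = 0.528). KO_Aged_125 had the highest erythroid sum of the aged KO hearts (1870 CPM, others 921 to 1060 CPM). It had the lowest sum of atrial markers (248 CPM, others 307 to 733 CPM). Its sum of 15 mesothelial, valve and cartilage-like markers was also the lowest (21.1 CPM, others 33 to 50.4 CPM). Its pericyte and smooth muscle sum of 1630 CPM (others 1590 to 1690 CPM) was within the range of the others. So was its fibroblast sum of 3150 CPM (others 3080 to 3750 CPM). Its sum of collagen synthesis and processing genes was the lowest of aged KO (1620 CPM, others 1750 to 1850 CPM). Also lowest were TGF-beta pathway genes (1220 CPM, others 1380 to 1490 CPM) and collagen receptors (808 CPM, others 901 to 945 CPM). Collagen breakdown genes (1910 CPM, others 1890 to 1930 CPM) and laminin and basement membrane genes (2660 CPM, others 2620 to 2850 CPM) were not lowest. Of the wider lists, Fkbp10 (0.63 ± 0.12) and Mrc2 (0.45 ± 0.10) rose and Ctsl (-0.41 ± 0.09) fell in aged KO against aged WT. Fkbp10 (0.96 ± 0.17) and Timp3 (0.69 ± 0.14) also passed the test of the interaction. Timp3 was not called in aged KO against aged WT (0.22 ± 0.10, adjusted p = 0.409). Its group means, in CPM, were 500 ± 60.5 (young WT), 362 ± 41.5 (young KO), 395 ± 27.8 (aged WT) and 460 ± 37 (aged KO, SD, n = 4). The KO mean of Timp3 was thus already the lower at 8 weeks. Of 17 collagen breakdown genes 1 was called at 8 weeks in KO against WT, as lower. Fibroblast markers had 0 calls in aged KO against aged WT (median 0.12), and the sums were 3080 to 3750 CPM in aged KO. Macrophage markers had sums of 489 to 551 CPM in aged KO and 650 to 913 CPM in aged WT hearts, with 1 of 12 called, as lower. Of 8 atrial markers tested 0 were called in aged KO against aged WT (median 0.74). They included Myl4 (3.79 ± 1.22), Myl7 (6.55 ± 2.21), Nppa (0.05 ± 0.73) and Kcna5 (-0.11 ± 0.17). The part of these markers and genes in the collagen values was not tested.

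At 8 weeks no collagen gene differed between KO and WT by edgeR's test: 0 rose and 0 fell of 33, with 4 at an unadjusted p under 0.05, all lower (5.54% of all genes were lower and 5.43% higher at that threshold), and 0 called with DESeq2 or with limma, while 0.0523% of all genes rose and 0.217% fell. The median was -0.16, and 23 of 33 values were below 0. The 4 were Col5a1 (-0.24 ± 0.10), Col11a2 (-0.56 ± 0.23), Col4a3 (-0.45 ± 0.21) and Col6a2 (-0.27 ± 0.11), each with an adjusted p of 0.363 or more. The hearts of KO and WT overlapped in every collagen gene tested, while 4.06% of all genes were higher and 4.42% lower in KO without overlap. For Col4a1, the young KO hearts (592, 581, 507 and 465 CPM) ran from below to within the young WT range (670, 671, 577 and 549 CPM), with a difference of -0.20 ± 0.12 (adjusted p = 0.562).

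Chains that share a trimer or a fibril were also compared as the log2 ratio of their counts in each heart, with exact two-sided permutation tests. Of 24 tests, over 6 ratios and 4 comparisons, 0 passed after Benjamini-Hochberg adjustment, and 4 had the smallest p that 4 against 4 hearts allow (exact permutation p = 0.0286, adjusted p = 0.171). The ratio of Col1a1 to Col1a2 was -0.56, -0.62, -0.60 and -0.70 in young and -1.52, -0.83, -1.38 and -1.02 in aged WT hearts. All aged hearts were lower, with a mean difference of -0.57, and they were more spread (SD 0.32 against 0.06). The ratio of Col6a2 to Col6a1 was -0.09, -0.11, -0.08 and -0.13 in young WT, -0.52, -0.25, -0.29 and -0.32 in aged WT and -0.20, -0.11, -0.13 and -0.22 in aged KO hearts. It was lower in each aged WT heart than in each young WT heart (difference -0.24) and higher in each aged KO than in each aged WT heart (0.18), both at that smallest p. The third ratio lower in every aged WT heart was Col6a3 to Col6a1 (difference -0.31). The ratio of Col4a2 to Col4a1 was -0.38 ± 0.14 in aged and -0.48 ± 0.06 in young WT hearts (SD, n = 4, exact permutation p = 0.229).

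Some chains varied together between hearts of a group. The SD within groups of the log2 ratio was 0.09 for Col4a2 to Col4a1, where each chain alone had 0.20, and 0.08 for Col6a2 to Col6a1, where the chains had 0.17 and 0.15. Both are pairs of neighbouring genes. For Col1a1 to Col1a2, which lie on different chromosomes, the SD of the ratio was 0.2, also below that of either chain (0.31 and 0.24). For Col3a1 to Col1a1 it was 0.42, between the 0.55 of Col3a1 and the 0.31 of Col1a1. For Col5a2 to Col5a1 it was 0.34 (0.4 and 0.15), and for Col6a3 to Col6a1 0.19 (0.26 and 0.15). The 2 counts in a ratio come from the same library, so the scaling of the library drops out of the ratio. The SDs of single chains are of log2 CPM, in which depth was already scaled out.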

How the data were processed

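RNA of 16 hearts was sequenced, 4 per group. The authors deposited estimated counts per gene, of which 9.57% to 10.5% per library were not whole within 1e-09 (none in a collagen gene), and FPKM, a level per transcript length. HISAT, Bowtie2 and the build GRCm39 are named, per the submitters' processing notes. The counting program and its use of strand are not given in the sources used here. Groups were taken from the genotype and age labels. Titles of young WT samples begin with WO, while their genotype label and table columns give WT. Counts were rounded and fitted in R 4.3.3 with edgeR 4.0.16 (filterByExpr, TMM scaling, glmQLFit with robust=TRUE, glmQLFTest), all 16 libraries and 4 groups in 1 model with 12 residual degrees of freedom. P-values were Benjamini-Hochberg adjusted over 13373 genes, and a gene was called at an adjusted p under 0.05. CPM use TMM-scaled library sizes. Log2 changes come from the edgeR fit at its default prior count. Chain ratios were tested by two-sided exact permutation (70 regroupings). Depth was 11456503 to 13298660 counts per library, and intervals and limits for 0 counts cover counting error only.

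Alternatives were RLE size factors, no filter on low counts, DESeq2 1.42.0, limma 3.58.1 on log2(FPKM + 1) and log2(FPKM + 0.1), the 8 libraries of a comparison alone, each heart left out, and, added after seeing the data, glmQLFit without robust=TRUE. The pseudocount added to FPKM understates changes of low genes. For Col28a1 in WT ageing the log2 change was -0.77 at a pseudocount of 0.1 and -0.27 at 1, beside -1.06 by edgeR. Per-heart values are given for collagen genes called in at least 1 comparison at 1 CPM or more, and for the 5 with the highest mean FPKM. Of the wider lists up to 4 genes each are named by adjusted p in WT ageing. Other collagen genes with values, such as Col5a2, Col4a5, Col8a1, Col14a1, Col25a1 and Col27a1, were chosen after their values were seen. So were Aqp1, Fabp4 and genes named from lists in the other comparisons or beside WT_Aged_1. The collagen genes and all lists were chosen with earlier results of these data known. Animal numbers differ between groups and pair no hearts. Promoter sequences are RefSeq windows of GRCm38.p6, a build other than that of the reads, and were used for their letters.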

Additional observations from a re-analysis of the deposited data

Results flagged for a closer look

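Of 60 groups of 4 hearts examined (15 named collagen genes in 4 groups), 5 held a heart that lay far from the other 3, with a gap to the nearest heart, as a share of the range, above Dixon's 95% critical value. Chance flags about 1 in 20 groups. Col3a1, of the type III fibrillar chain, was at 327 CPM in WT_Aged_1, with the next heart at 119 CPM. Col6a1 was at 83.7 CPM in WT_Aged_4 (next 70.9 CPM) and at 76.0 CPM in KO_Aged_125 (next 95.9 CPM). Col6a2 was at 65.1 CPM in KO_Aged_125, where the next heart was at 85.2 CPM. Col6a3 was at 21.0 CPM in WT_Aged_12, with the next heart at 27.7 CPM. The type VI chains held 4 of the 5 flags, which are not independent. Col6a1 and Col6a2 in KO_Aged_125 are the same heart, in chains that varied together (SD within groups of their log2 ratio 0.08). The low KO_Aged_125 heart is the one that overlaps aged WT in Col6a2.

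The ageing change of Col6a2 differed between the genotypes by edgeR's test of the difference itself, with a log2 interaction of 0.76 (adjusted p = 0.0334). The call was lost without any of several single hearts, and with limma on FPKM (adjusted p = 0.0611 at a pseudocount of 1).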

How the results depend on the processing

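The number of collagen genes called in WT ageing was 15 with DESeq2, RLE size factors, no filter or a fit without robust estimation, 13 with only the 8 libraries, 11 with limma on FPKM at either pseudocount, and 11 to 16 with a heart left out, with every call a fall. Without the filter Col11a1 was called in place of Col5a3. With limma at either pseudocount Col3a1 was added, and Col5a3, Col4a4, Col18a1, Col25a1 and Col28a1 were lost. In KO ageing 3 became 5 with DESeq2 (Col5a3 and Col6a1 added) and 5 with only the 8 libraries (4 lower, 1 higher). In aged KO against aged WT 1 became 3 with DESeq2 (Col1a1 and Col6a3 added), 0 with limma on log2(FPKM + 1), 0 with limma on log2(FPKM + 0.1) and 0 with only the 8 libraries, and ranged from 0 to 4 with a heart left out. The interaction count of 1 became 4 with DESeq2 (Col1a1, Col5a1 and Col6a3 added), 0 with limma on log2(FPKM + 1), 0 with limma on log2(FPKM + 0.1), and ranged from 0 to 6 with a heart left out. Young KO against young WT gave 0 in each setting run. The causes were not tested, and no chain ratio passed on counts or on FPKM.

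Values near 0 that were not called changed sign. Col4a3 in KO ageing was 0.04 and 0.03 with limma on FPKM (pseudocounts 0.1 and 1), 0.01 with only the 8 libraries and -0.19 to 0.19 with a heart left out. With a heart left out, Col28a1 in KO ageing ranged from -0.42 to 0.06, Col18a1 in aged KO against aged WT from -0.07 to 0.25, Col3a1 there from -0.01 to 0.84 and Col5a3 there from 0.00 to 0.34, and the Col5a3 interaction from -0.12 to 0.22. No paired analysis was possible because the groups share no animal numbers.

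With 4 hearts per group, WT_Aged_1 and KO_Aged_125 move several collagen values, and calls with adjusted p near 0.05 depend on single hearts. Collagen genes under about 1 CPM rest on few counts. mRNA levels of whole hearts do not give collagen protein or its cell of origin.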
